A study of Rattus norvegicus with 74 samples.

Results

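The genes described here are nuclear genes for subunits of respiratory complexes II, III and IV and of the ATP synthase (complex V). Cytochrome c is included with them. They were taken from the deposited count tables as the protein-coding genes whose symbol is Sdha, Sdhb, Sdhc or Sdhd, or starts with Uqcr, with Cox4 through Cox8 or with Atp5. Cyc1 and Cycs were added, and Cox7a1 was left out. The rule found 45 of the 30560 genes: 4 of complex II, 9 of complex III with Cyc1, the carrier Cycs, 16 of complex IV and 15 of complex V. They carry 43 symbols, because Uqcrb and Atp5mk each stand on 2 rows. Those second rows and the copies Cox6b1-ps1, Cox6c-ps1 and Cox7a2l2 are near relatives of other members, and the way reads were divided among them is uncertain. The rule found no row for Cox7a2, Cox8a, Cox8b, Atp5mc1, Atp5f1c, Atp5f1e or Uqcr11, and Cox8c was the only Cox8 gene found. Counts by complex and summed shares below therefore do not cover every subunit.

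Electrons taken from succinate by complex II pass through complex III and cytochrome c to complex IV, which reduces oxygen, and the proton gradient built on the way drives the ATP synthase. Complex II is encoded wholly in the nucleus, whereas complexes III, IV and V each combine nuclear subunits with subunits made from the mitochondrial genome. Several complex IV subunits exist as isoforms, with a form of their own in heart and skeletal muscle, and endurance training is known to raise the oxidative capacity of muscle.

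RNA came from male Wistar Kyoto rats of wild-type genotype, 9 weeks old, that all drank water with 8% deuterium oxide. Trained rats (ExT) ran on a treadmill 5 days a week for 4 weeks, up to 60 min at 20 m/min, and sedentary rats (Sed) were put on a stationary one. Tissue was taken 24 h after training ended. The red inner gastrocnemius of 30 rats gave whole muscle (SM) and mitochondria (MT) pulled down from fresh muscle with an antibody and treated with RNase-A and proteinase-K, which makes 4 groups of 15 libraries, SM_Sed, SM_ExT, MT_Sed and MT_ExT. The left ventricle (LV) of 14 of these rats gave 7 libraries in each of LV_Sed and LV_ExT. Libraries were made with one kit from 50 ng of SM and 10 ng of MT RNA and with another kit from 100 ng of LV RNA. Tissue and kit, and fraction and RNA input, therefore cannot be told apart.

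Total counts ranged from 19477976 to 39401323 in SM, 530397 to 9988027 in MT and 54645657 to 75758777 in LV. Levels below are counts per 1000000 nuclear-encoded counts (CPM), which leaves 37 genes of the mitochondrial genome out of the total. Levels are not corrected for length, so a gene is compared with its own level elsewhere, and shares within an isoform pair are compared only between samples. The median member had a median of 4456.5 counts per library in SM, 13652.5 in LV and 13 in MT. The labelled tissues carried their markers: 7 skeletal muscle genes summed to at least 116451 CPM in SM and at most 3451 in LV, and 8 heart genes to at least 43179 in LV and at most 135.6 in SM. Skeletal muscle markers in MT summed to 546.2 to 2800. In bulk RNA, fewer cells of a type and less RNA per cell cannot be told apart. SM libraries are also given by rat number, 2 to 16 (14 rats) and 17 to 32 (16 rats), because the ranges gave different results. The labels do not say what sets the ranges apart.

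RefSeq promoter windows (GRCr8, 250 bases before to 50 after the start) were matched for 35 of the 43 symbols. For 4 members the window is printed with the motifs found in it. Members moved together across libraries, as described further on, and whether the motifs have a part in that was not tested. Uqcrc1 was the member of smallest p in trained muscle, Atp5mc3 and Cox6a2 were among the members most above muscle in the ventricle, and Atp5me was the one farthest below. Capitals mark a match on either strand to 4 motifs: the NRF1 motif (GCGCA and GCGC with any 1 base between them), the ETS motif CCGGAAG, the oestrogen-related receptor (ERR) motif AAGGTCA and the GC box GGGCGG. None of the marked matches overlap. The windows are chr8:118467973-118468272 on the plus strand for Uqcrc1, chr3:79220615-79220914 on the minus strand for Atp5mc3, chr14:1464610-1464909 on the plus strand for Atp5me and chr1:192219667-192219966 on the minus strand for Cox6a2.
Uqcrc1: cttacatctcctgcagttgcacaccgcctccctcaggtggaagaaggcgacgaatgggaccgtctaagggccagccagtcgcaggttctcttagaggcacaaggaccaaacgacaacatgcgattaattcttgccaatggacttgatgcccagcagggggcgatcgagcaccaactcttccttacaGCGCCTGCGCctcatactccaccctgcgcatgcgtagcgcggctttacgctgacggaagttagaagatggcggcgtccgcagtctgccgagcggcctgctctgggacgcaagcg
Atp5mc3: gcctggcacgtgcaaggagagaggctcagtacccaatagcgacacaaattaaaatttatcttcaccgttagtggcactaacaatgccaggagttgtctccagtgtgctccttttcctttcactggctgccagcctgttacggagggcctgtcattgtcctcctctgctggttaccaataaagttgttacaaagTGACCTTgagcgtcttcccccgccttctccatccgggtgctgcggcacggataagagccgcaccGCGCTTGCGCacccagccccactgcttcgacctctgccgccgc
Atp5me: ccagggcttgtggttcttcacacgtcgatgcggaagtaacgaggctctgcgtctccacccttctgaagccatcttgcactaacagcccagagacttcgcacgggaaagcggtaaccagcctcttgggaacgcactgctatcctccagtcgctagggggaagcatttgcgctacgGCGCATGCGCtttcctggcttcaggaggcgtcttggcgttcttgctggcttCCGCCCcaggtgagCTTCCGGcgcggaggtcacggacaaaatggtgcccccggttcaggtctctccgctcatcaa
Cox6a2: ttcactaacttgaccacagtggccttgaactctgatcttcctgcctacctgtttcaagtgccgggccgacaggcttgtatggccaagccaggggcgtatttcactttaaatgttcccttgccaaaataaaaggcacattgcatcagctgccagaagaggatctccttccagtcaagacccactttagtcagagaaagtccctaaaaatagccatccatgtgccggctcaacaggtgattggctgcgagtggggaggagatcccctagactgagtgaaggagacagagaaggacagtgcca
Uqcrc1 held an NRF1 match starting 64 bases before the transcription start. Atp5mc3 held an NRF1 match 8 bases after its start and an ERR match 57 bases before it. Atp5me held NRF1, GC box and ETS matches, 76, 25 and 11 bases before its start. The Cox6a2 window held no match to these letters.
Of the 35 member windows, 6 held an NRF1 match (17.1%, against 4.71% of all 27457 windows): Sdha, Uqcrc1, Atp5mc2, Atp5mc3, Atp5me and Atp5po. An ETS match was found in 12 (34.3% against 9.22%), an ERR match in 5 (14.3% against 4.37%) and a GC box in 14 (40% against 34.9%). A match describes the letters and is not a bound site.

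The members took 1.49% ± 0.224 of nuclear-encoded counts in SM_Sed and 1.66% ± 0.230 in SM_ExT (mean ± SD, n = 15 each). In LV they took 2.99% ± 0.168 in Sed and 2.96% ± 0.163 in ExT (n = 7 each). In MT they took 0.0937% ± 0.00909 in Sed and 0.0960% ± 0.0110 in ExT (n = 15 each). The 3 kinds of library did not overlap in this share, whereas Sed and ExT overlapped within each kind.

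**Figure D1:**
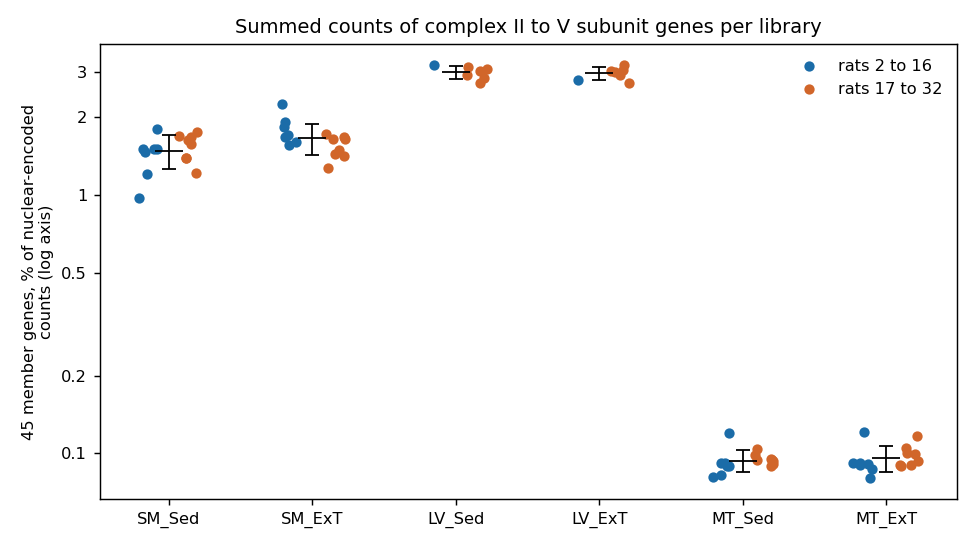
Share of nuclear-encoded counts on the 45 member genes in each of the 74 libraries, on a log axis in percent. Points are libraries coloured by rat number, and bars show the mean and 1 SD of each group. LV libraries lie near 3%, SM libraries between 0.973% and 2.24%, and MT libraries near 0.1%.

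The first comparison asked whether training changed the subunit genes in whole muscle. No member passed the test: edgeR's quasi-likelihood test with Benjamini-Hochberg adjustment called 0 of the 40 members tested, against 0.206% of all 13570 genes (28 genes). At an unadjusted p under 0.05 there were 8 members, against 13.7% of all genes, and DESeq2 also called 0. The log2 fold change was above 0 for 30 of 40 members, against 47.9% of all genes, with a median of 0.07. Without SM_ExT rat 5, 25 lay above 0 and the median was 0.04. Scaled to nuclear-encoded totals, 35 of 40 lay above 0 with a median of 0.12, where 67.5% of all genes lay above 0 with a median of 0.05. On that scale edgeR called 0 members (0.354% of all genes), and 11 had an unadjusted p under 0.05 (15.7% of all genes).
In complex II, all 4 genes had values above 0, with Sdhb, the iron-sulphur subunit, at 0.19 (SE 0.10) and Sdha, the flavoprotein subunit, at 0.07 (SE 0.07). The membrane anchors Sdhc and Sdhd stood at 0.12 and 0.02. The smallest p of any member belonged to Uqcrc1, a core protein of complex III, at 0.22 (SE 0.07, edgeR adjusted p = 0.139). Its level ran from 270.3 through a median of 411.5 to 498.7 in SM_Sed and from 410.5 through 477.9 to 689.2 in SM_ExT, so the trained libraries reached higher and the arms overlapped. The other two smallest were Atp5f1a, the catalytic-head alpha subunit of the ATP synthase (0.18, SE 0.07, edgeR adjusted p = 0.266), and Cox4i1, the main form of complex IV subunit 4 (0.16, SE 0.07, edgeR adjusted p = 0.280).
The Rieske protein gene Uqcrfs1 stood at 0.09, Cyc1 (cytochrome c1) at 0.14 and Cycs (cytochrome c) at 0.05. The complex IV subunit genes Cox5a and Cox5b stood at 0.14 and 0.15. Atp5f1b, the beta subunit that makes ATP, stood at 0.15, and Atp5if1, the inhibitor of the synthase, at -0.03. None of these was called. Cox7a1, the muscle form of another complex IV subunit and no member here, was called at 0.75 (SE 0.14, edgeR adjusted p = 0.0163). Its level was low, from 2.17 to 6.28 CPM in SM_Sed and from 4.31 to 12.9 in SM_ExT, with overlap. The median member stood at 226 CPM in SM.

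The rat-number ranges gave different values in muscle. In rats 2 to 16, 39 of 40 members lay above 0 (49.1% of all genes did), with a median log2 fold change of 0.23. In rats 17 to 32, 7 of 40 lay above 0 (49.4% of all genes), with a median of -0.09. Those 7, above 0 in both ranges, were Sdhc, Uqcrc1, Cox4i1, Cox5a, Atp5f1a, Atp5f1b and Atp5mc3.
edgeR called 1 member in the earlier range, Uqcrc1 (0.37, SE 0.10, adjusted p = 0.0487), where 2.95% of all genes were called, and 25 members had an unadjusted p under 0.05 (23.2% of all genes). Leaving out 1 library at a time gave between 0 and 14 called members, while the share of all genes called ran from 0.652% to 11.3%. There were 14 without SM_Sed rat 11, the fit in which 11.3% of all genes were called, 2 without SM_ExT rat 13, and 0 without any one of SM_Sed rats 4, 7, 8, 12 and 15 and SM_ExT rats 5, 9, 10 and 14. In the later range 0 members were called, with 0.00732% of all genes called and 11 members at an unadjusted p under 0.05 (6.02% of all genes).
In rats 2 to 16, Uqcrc1 ran from 270.3 through 409.4 to 480.0 in Sed and from 421.0 through 542.3 to 689.2 in ExT. In rats 17 to 32 it ran from 350.0 through 442.1 to 498.7 in Sed and from 410.5 through 453.2 to 596.5 in ExT. The arms overlapped in both ranges, and the trained median was higher in both.
Sdhb in rats 2 to 16 ran from 216.8 through 366.7 to 536.3 in Sed and from 434.4 through 484.7 to 673.5 in ExT (log2 fold change 0.44, SE 0.13, edgeR adjusted p = 0.0586). In rats 17 to 32 its medians were 411.9 in Sed and 416.9 in ExT, with a log2 fold change of -0.03. Its arms overlapped in both ranges. Cox5b went from a median of 535.7 to 664.7 in the earlier range and from 446.3 to 433.6 in the later.
An interaction term compared the ranges directly. It was fitted after the ranges had been seen to differ, so its counts describe that difference and are no independent support. The members also varied together in SM (median pairwise r 0.75), so they do not count as 40 separate results. edgeR called 0 of 40 members, as it called 0.0% of all 14033 genes. All 40 members had a larger training effect in rats 2 to 16 (51.5% of all genes did), 26 of them at an unadjusted p under 0.05 (12.8% of all genes), and the median difference was 0.34. By complex, 1 of 4 genes of complex II, 5 of 8 of complex III, 10 of 12 of complex IV and 10 of 15 of complex V were at an unadjusted p under 0.05. The smallest p belonged to Cox6a1, the widely expressed form of complex IV subunit 6a, at 0.65 (SE 0.17, edgeR adjusted p = 0.191).

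**Figure D2:**
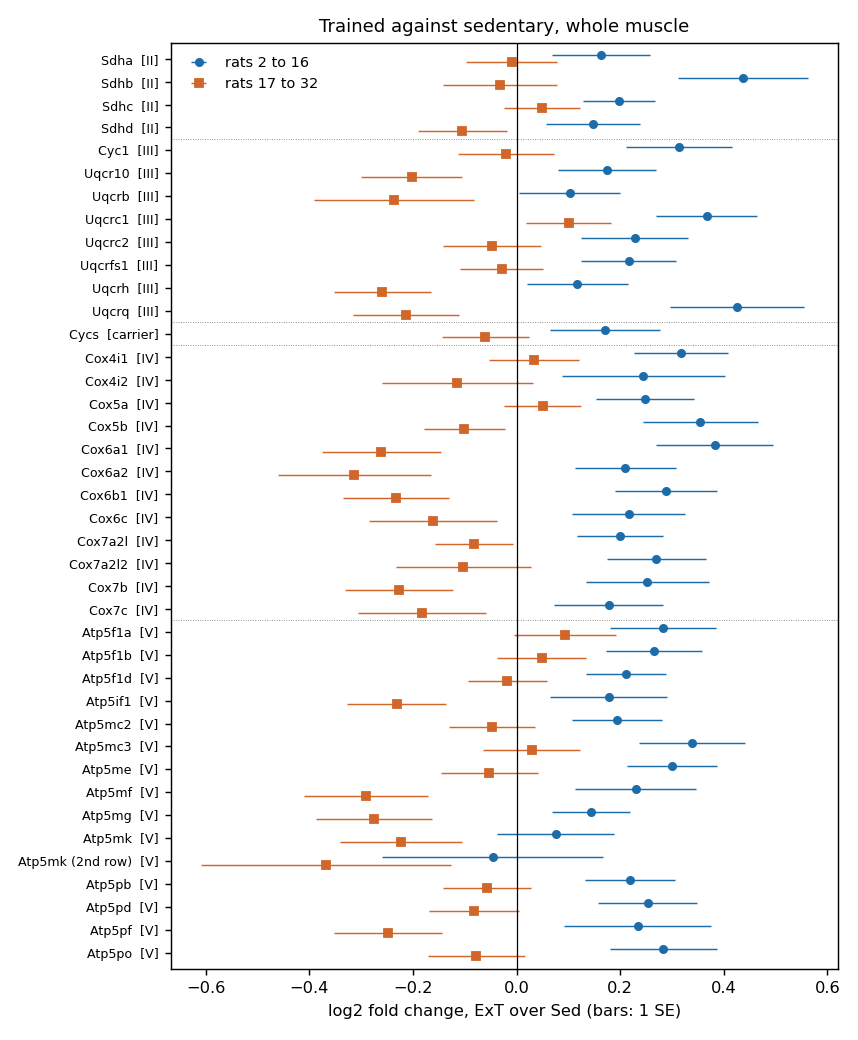
Log2 fold change of trained over sedentary whole muscle for each of the 40 members tested, by complex, in rats 2 to 16 (circles, 14 rats) and rats 17 to 32 (squares, 16 rats), with bars of 1 SE from edgeR. 39 members lie right of 0 in the earlier range and 33 lie left of it in the later.

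Values of slow-fibre genes differed between the ranges as well. The 7 genes summed to 5577 to 35873 CPM in SM_Sed and 6243 to 39208 in SM_ExT, and none was at 0. Their median log2 fold change with training was 0.87 in rats 2 to 16 and -0.12 in rats 17 to 32, with 0 of 7 called by edgeR in either. With the summed slow-fibre level as a term in the model, 20 of 40 members lay above 0 and their median was 0.00, with 0 called and 2 at an unadjusted p under 0.05 (9.08% of all genes). All 4 endothelial genes were also above 0 in trained muscle (median 0.18, 4 at an unadjusted p under 0.05, 0 called by edgeR). The 7 skeletal muscle markers were those found of Ckm, Acta1, Myh1, Myh2, Myh4, Mylpf, Tnnt3, Tnni2 and Pvalb, many of which are fast-fibre genes. In rats 2 to 16 these 7 markers had a median of -0.28, with 2 called by edgeR. Their mean sum in these rats was 158208 CPM in Sed and 138497 in ExT. The mean sum of 3 fibroblast genes there was 2263 in Sed and 1554 in ExT. The part of these lists in the members' values was not tested. The slow-fibre fit does not test it, because the slow-fibre level was measured in the same libraries after training. Its 7 genes had a median of 0.34 with training over all SM rats, with 0 called by edgeR. Fibre make-up and training therefore cannot be told apart in that fit, which also took all SM rats together and not each range. In the slow-fibre fit 49.2% of all genes lay above 0 and 0.103% were called.
Other respiratory genes were counted in the same way. Of complex I subunit genes, 28 of 36 lay above 0 in all SM rats with a median of 0.08. All 36 did in rats 2 to 16 (median 0.26), and 6 of 37 in rats 17 to 32 (median -0.10). Assembly factors of complexes II to V lay above 0 for 19 of 26 genes (median 0.05), and mitochondrial ribosomal proteins for 46 of 69 (median 0.03). In rats 2 to 16 these were 20 of 26 (median 0.11) and 63 of 69 (median 0.14), and in rats 17 to 32 they were 12 of 26 (median -0.01) and 18 of 69 (median -0.07). The median difference between the ranges was 0.12 for assembly factors, 0.19 for mitochondrial ribosomal proteins and 0.34 for complex I. The 6 mitochondrial-genome partners of complexes III, IV and V (Mt-cyb, Mt-co1, Mt-co2, Mt-co3, Mt-atp6 and Mt-atp8) all lay above 0, from 0.13 to 0.25. Over all SM rats edgeR called none of these lists' genes. In rats 2 to 16 it called 2 of 36 complex I genes, 2 of 26 assembly factors and 1 of 69 mitochondrial ribosomal proteins (2.95% of all genes). In rats 17 to 32 it called 0 in each of these 3 lists. No difference between the lists was tested.

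In isolated mitochondria, edgeR called 0 of 29 members tested with training, as it called 0.0% of all 19281 genes, with 0 members at an unadjusted p under 0.05 (4.73% of all genes) and 0 called by DESeq2. Values lay above 0 for 17 of 29 (50.7% of all genes). The other 16 members fell under the count filter. The 3 of smallest p were Cox6a1 (-0.35, SE 0.19), Atp5f1a (0.19, SE 0.12) and Cox6b1 (-0.34, SE 0.21), each with an edgeR adjusted p of 1.00. Cox6a1 had 3 to 24 counts per library in MT_Sed and 1 to 20 in MT_ExT.
In the ventricle, edgeR called 0 of 39 members with training, and 0.0% of all 14488 genes. One member had an unadjusted p under 0.05 (5.9% of all genes did), and DESeq2 called 0. That was Atp5f1d, the delta subunit of the ATP synthase, at 0.15 (SE 0.06, edgeR adjusted p = 0.804). Its LV level ran from 169 through 177 to 191 in Sed and from 178 through 186 to 215 in ExT, and the arms overlapped. Next came the coupling-factor subunit Atp5pf (0.16, SE 0.09, edgeR adjusted p = 0.817) and Cox6c (-0.09, SE 0.07, edgeR adjusted p = 0.856).
All 39 ventricle values lay between -0.09 and 0.40, and 28 were above 0 (50.0% of all genes). Scaled to nuclear-encoded totals, 8 of 40 were above 0 (31.1% of all genes), with a median of -0.02, where that of all genes was -0.05. On that scale 0 were called and 1 had an unadjusted p under 0.05 (7.45% of all genes). Leaving out 1 library at a time left 0 called in all 14 fits and moved the number above 0 from 15, without LV_ExT rat 25, to 33.
Differences in the training effect between sample types were tested as interactions. A value above 0 means a higher training value in MT or LV than in SM, and not by itself a rise there. Between MT and SM, edgeR called 0 of 45 members (0.0181% of all 27684 genes), with 3 at an unadjusted p under 0.05 (8.5% of all genes) and 0 by DESeq2, and 16 above 0 (49.7% of all genes). Those 3, Uqcrc1 (-0.34), Cyc1 (-0.38) and Cox5a (-0.38), had lower values in MT. Between LV and SM in the same 14 rats, of which 2 are numbered 16 or lower, edgeR called 0 of 40 (0.0% of all 15049 genes), with 7 at an unadjusted p under 0.05 (4.57% of all genes) and 0 by DESeq2, and 34 above 0 (52.7% of all genes). Scaled to nuclear-encoded totals, 0 members had an unadjusted p under 0.05 (5.58% of all genes), and 24 of 40 lay above 0 (30.6% of all genes). The smallest p belonged to Uqcrh, the hinge subunit of complex III (0.32, SE 0.12), then Atp5mk (0.36, SE 0.14) and Uqcrb (0.40, SE 0.17), each with an edgeR adjusted p of 1.00. The members' median with training was 0.02 in LV and -0.09 in SM of rats 17 to 32. Training in SM of the 14 LV rats alone was not tested.

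Ventricle and red gastrocnemius of the same rats differed in most members, in both directions. edgeR called 33 of 40 in sedentary rats (78.7% of all 14367 genes were called) and 31 of 40 in trained rats (79.3% of 14338). In Sed, 20 were higher in LV (40.0% of all genes) and 13 lower (38.6%), and in ExT 21 were higher (39.7%) and 10 lower (39.5%). In both arms 19 members were higher and 10 lower, against 37.1% and 36.5% of all genes tested in both.
These fold changes use TMM scaling, which puts the median gene near 0. In CPM, the unit of the printed levels, the median gene stood 0.60 higher in LV in Sed and 0.50 higher in ExT (log2). On that scale edgeR called 37 members in Sed (84.1% of all genes) and 39 in ExT (83.3%). In Sed 29 were higher and 8 lower (62.8% and 21.3% of all genes), and in ExT 31 were higher and 8 lower (59.8% and 23.6%). Levels of Sdha, Cox4i1 and Cox5b were therefore higher in LV, while their TMM fold changes lay within 0.12 of 0 and were not called.
By complex, 2 of the 4 complex II genes were higher in LV in both arms. Sdhc ran from 129.1 through 135.7 to 167.5 in SM_Sed and from 403.4 through 422.0 to 433.9 in LV_Sed, without overlap (log2 fold change 1.01, SE 0.07, edgeR adjusted p = 4.1e-11). Sdhd stood at 0.60 and 0.75 in Sed and ExT. Sdhb was called lower in Sed (-0.17, edgeR adjusted p = 0.0285) and its direction turned to 0.38 in CPM.
In complex III, the core proteins and the Rieske protein were higher. Uqcrc1 ran from 356.6 through 442.7 to 475.1 in SM_Sed and from 1200 through 1342 to 1481 in LV_Sed, without overlap (1.07, SE 0.08, edgeR adjusted p = 4.6e-10). Uqcrc2 stood at 0.80 and 0.89 and Uqcrfs1 at 0.89 and 1.01. The small subunit genes Uqcrb (-1.78 and -1.41) and Uqcrq (-0.96 and -0.75) were lower. Cyc1 was called lower (-0.30 and -0.25) but stood at 0.25 and 0.23 in CPM. Cycs was higher, at 0.97 and 1.09.
In complex IV, Cox6a2, the heart and muscle form of subunit 6a, was the member most above muscle. It ran from 146.7 through 228.2 to 283.2 in SM_Sed and from 905.6 through 996.7 to 1056 in LV_Sed, without overlap (1.65, SE 0.11, edgeR adjusted p = 6.0e-11), and stood at 1.92 (SE 0.13) in ExT. Its widely expressed partner Cox6a1 was higher too, at 1.00 and 1.07, as were Cox6b1 (1.03 and 1.27), Cox7b (0.73 and 0.97), Cox7a2l (0.51 and 0.58) and the copy Cox7a2l2 (1.18 and 1.41). Cox6c was lower (-1.72 and -1.56), and so was Cox5a (-0.50 and -0.51), whose value in CPM was 0.06 and -0.03. Cox4i1 and Cox4i2 were not called.
Complex V held the widest spread. Atp5me, subunit e of the membrane part, ran from 87.8 through 99.2 to 117.1 in SM_Sed and from 0.0273 through 0.265 to 0.449 in LV_Sed, without overlap, which is 1 to 16 counts per LV library. On the log2 scale it differed by -9.10 (SE 0.20, edgeR adjusted p = 3.9e-17) in Sed and by -9.36 (SE 0.22) in ExT. With so few counts in one kind of library and a different kit, how far the tables' counting of this gene is comparable was not tested.
Atp5pf was the next lowest, from 247.1 through 326.3 to 374.5 in SM_Sed and from 51.9 through 62.1 to 72.4 in LV_Sed (-2.90, SE 0.10, edgeR adjusted p = 8.0e-16; -2.55 in ExT). Atp5f1d (-1.44 and -1.33) and Atp5mk (-1.23 and -0.89) were lower as well, with the second Atp5mk row at -2.58 and -1.66. By contrast, Atp5mc3, a gene for the rotating c-ring, ran from 174.7 through 189.7 to 224.5 in SM_Sed and from 647.9 through 715.3 to 763.9 in LV_Sed (1.31, SE 0.06, edgeR adjusted p = 3.5e-13). Atp5mg, subunit g, stood at 1.22 and 1.48, and Atp5pb, the stator subunit b, at 1.18 and 1.27. The head subunits Atp5f1a (0.59 and 0.55) and Atp5f1b (0.62 and 0.62) were higher, and the inhibitor Atp5if1 was called lower in Sed only (-0.33; -0.15 in ExT), with the difference between the arms not called. Its value in CPM was 0.22 in Sed and 0.34 in ExT, and its level was higher in LV in 6 of 7 rats in each arm.

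**Figure D3:**
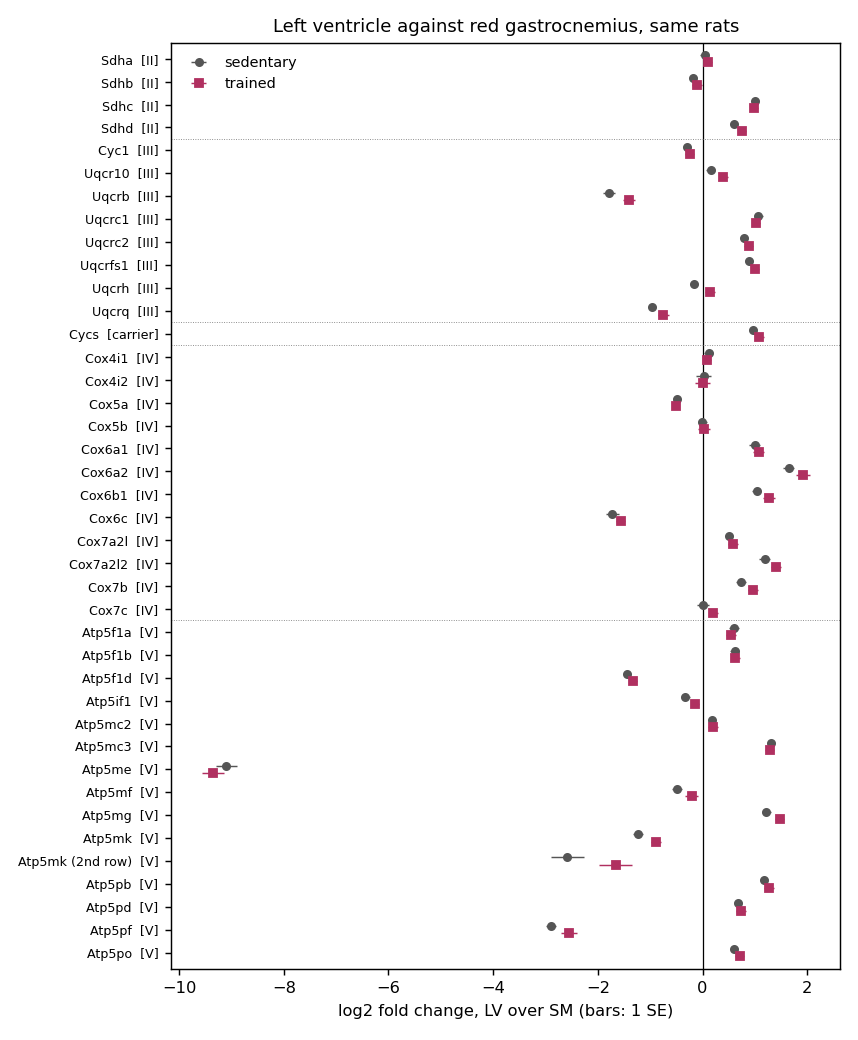
Log2 fold change of left ventricle over red gastrocnemius from the same rats for the 40 members tested, by complex, in sedentary (circles, 7 rats) and trained rats (squares, 7 rats), TMM scaled, with bars of 1 SE. Most members lie between -2 and 2, and Atp5me lies near -9.

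Shares within isoform pairs do not depend on library scaling. Cox6a2 made up 86.1% of the Cox6a2 and Cox6a1 level in SM and 90.7% in LV of the 7 sedentary rats, a difference of 4.57 percentage points, and 85.1% and 91.3% in the 7 trained rats, a difference of 6.15 points. LV was higher in 7 of 7 rats in each arm (exact two-sided paired permutation test, p = 0.0156, the smallest it can give, q = 0.0469 over 12 tests). Atp5mc3 made up 59.3% of Atp5mc3 and Atp5mc2 in SM and 76.0% in LV in Sed, and 60.4% and 76.3% in ExT, again higher in LV in 7 of 7 rats (exact paired permutation p = 0.0156, q = 0.0469). The Cox4i2 share of the Cox4i pair averaged between 0.677% (LV_ExT) and 0.786% (SM_Sed) in the 4 groups of SM and LV and passed no test.
With training, the Cox6a2 share in SM was 86.0% ± 1.79 in Sed and 85.2% ± 1.03 in ExT (SD, n = 15, permutation q = 0.262). In rats 2 to 16 the sedentary mean was 86.9% and the trained mean 85.4% (exact permutation p = 0.0186, q = 0.0448). In rats 17 to 32 they were 85.2% and 85.0% (exact permutation q = 0.838). Each of these q values put the range's tests in place of those of all rats among the 12. The added range tests were therefore not counted, and the q of 0.0448 is not taken as passing. The difference between the ranges was not tested. The Atp5mc3 share was 57.8% ± 2.17 in Sed and 59.6% ± 3.23 in ExT (SD, n = 15, permutation q = 0.189). In LV neither share passed (exact permutation q = 0.186 for Cox6a2 and 0.688 for Atp5mc3).

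**Figure D4:**
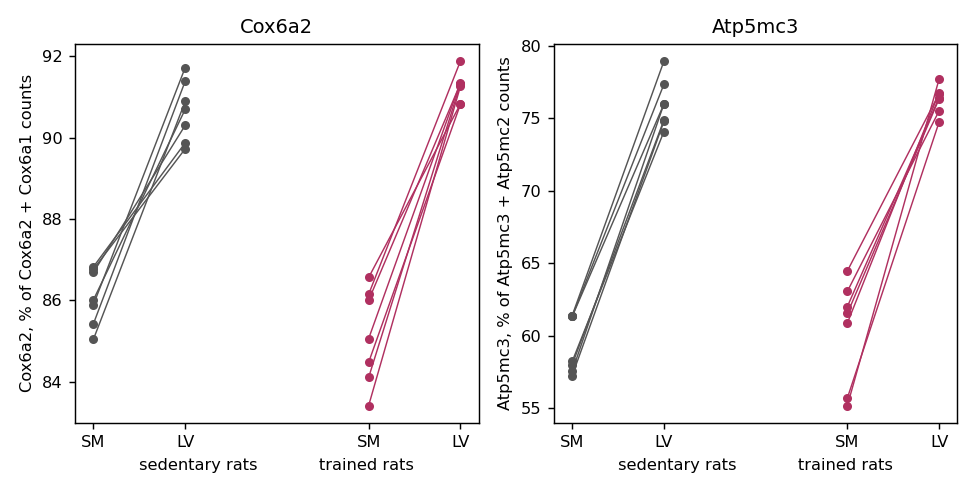
Share of Cox6a2 in the Cox6a pair (left) and of Atp5mc3 in the Atp5mc pair (right), in percent of the pair's level, in whole muscle and left ventricle. Each line joins the 2 libraries of 1 rat, and every line rises from SM to LV. The axes do not start at 0.

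In the mitochondrial fraction nearly all members were far below whole muscle. edgeR called 41 of 42 members in Sed (94.8% of all 22842 genes) and 40 of 42 in ExT (94.3% of 21312). In each arm 38 were lower, against 33.1% and 35.0% of all genes, and 3 in Sed and 2 in ExT were higher, against 61.7% and 59.3%. The members' median was -5.76 in both arms, while the median of all genes was 1.81 and 1.31. Scaled to nuclear-encoded totals, the members' median was -3.59 and -3.68, and that of all genes 4.45 and 4.28. On that scale edgeR called 43 of 43 members in each arm (96.4% and 96.3% of all genes). Of these, 38 were lower (9.52% of all genes in Sed and 10.1% in ExT) and 5 higher (86.9% and 86.3%). The share of counts on members was 15.9-fold lower in MT than SM in Sed and 17.3-fold lower in ExT.
The lowest was Atp5f1b, which ran from 1753 through 2531 to 3014 in SM_Sed and from 15.8 through 31.9 to 54.0 in MT_Sed, 8 to 39 counts, without overlap (-8.40, SE 0.15, edgeR adjusted p = 1.2e-41; -8.49 in ExT). Atp5f1a (-7.59 and -7.55), Cox7b (-7.28 and -7.69), Cox6c (-7.23 and -6.96) and Atp5mk (-6.87 and -6.64) followed. Nearer to the other genes stood Cox6a1 (-3.01 and -3.43), Cox7a2l (-3.54 and -3.59), Atp5mg (-4.10 and -4.02), Sdhc (-4.15 and -4.08) and Atp5if1 (-4.28 and -4.04).
All 4 complex II genes were lower, from -6.07 for Sdha to -4.15 for Sdhc in Sed, as were all 8 tested genes of complex III, from -6.73 to -5.19. Cycs stood at -5.80 and -5.71. In complex V, 14 of 15 were lower, and the second Atp5mk row was not called in either arm.
Of the mitochondrial-genome partners, 1 of 6 was called in Sed (Mt-atp8, -1.07) and 0 of 6 in ExT, with medians of -0.17 and 0.40 (edgeR; 0 of 6 at an unadjusted p under 0.05 in ExT). Assembly factors had medians of -1.65 and -1.55, mitochondrial ribosomal proteins -2.23 and -2.24, and complex I subunits -4.74 and -4.81. The difference between these lists was not tested.
The members higher in MT were scarce in muscle. Cox7b2 and Cox8c passed the count filter only through MT, so their calls give no support. With counts thinned to equal depth, 1 of 35 members tested was called higher in Sed (6478 of all 13928 genes) and 0 of 33 in ExT (5408 of 12565). That member was Cox4i2, described below, and neither Cox7b2 nor Cox8c. Cox7b2, a form of subunit 7b known from testis, had 0 counts in 14 or more of the 15 libraries of each SM arm and 3 to 20 counts in MT_Sed, at least 82.4-fold higher in Sed and 84.6-fold in ExT against a floor of 3 counts per library. Cox8c, also known from testis, was at least 49.5-fold and 70.5-fold higher, with 2 to 13 counts in MT_Sed. The copies Cox6c-ps1 and the second Uqcrb row, at 3 counts or fewer in every SM library, were at least 39.4-fold and 20.4-fold higher in Sed. All these folds are in CPM, where the median of all genes tested was itself 4.45 higher in MT in Sed and 4.28 in ExT (log2). They describe counts seen almost only in MT and are no support for a rise particular to these members. Cox4i2, the form of subunit 4 known from lung, was called higher in Sed (0.28, SE 0.13, edgeR adjusted p = 0.0325) and not in ExT (0.10, adjusted p = 0.473). Its level in ExT ran from 2.92 through 4.89 to 8.13 CPM in SM and from 12.6 through 23.5 to 31.3 in MT, without overlap. The ExT result depended on the setting. It stood at -0.06 without the count filter, and it was called at 0.48 with RLE scaling (edgeR adjusted p = 0.00154), at 0.46 by DESeq2 (adjusted p = 0.00202) and at 1.77 with library totals (edgeR adjusted p = 3.8e-06). In Sed it stood between 0.13 (without the filter, not called) and 3.005 (counts thinned to equal depth). The Sed call depended on the setting too. It was also lost with nuclear-encoded genes only (0.23, edgeR adjusted p = 0.0727), in rats 2 to 16 (0.33, edgeR adjusted p = 0.121) and in rats 17 to 32 (0.26, edgeR adjusted p = 0.143).
The level of 1216 olfactory and vomeronasal receptor genes, not known from muscle, moved with them, summing to a median of 11.2 CPM in SM_Sed and 16182 in MT_Sed. Its part in the higher members was not tested.

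**Figure D5:**
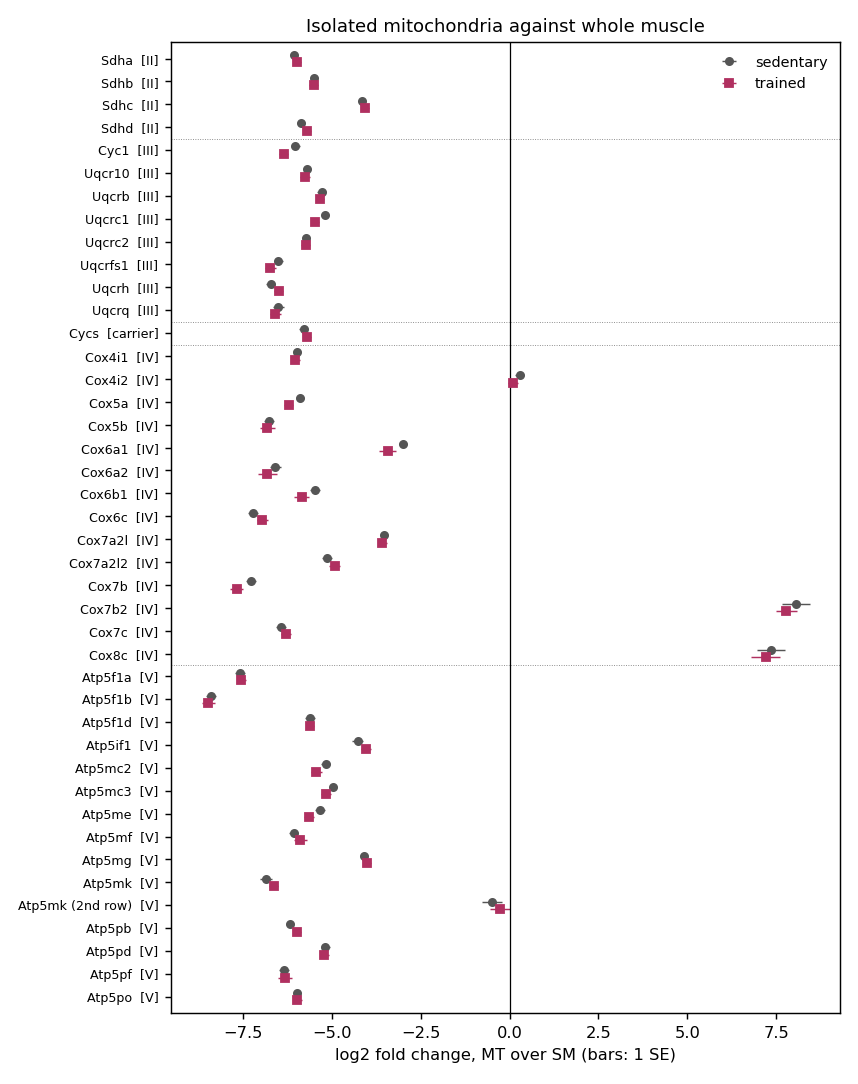
Log2 fold change of isolated mitochondria over whole muscle for the 42 members tested, by complex, in sedentary (circles) and trained rats (squares), 15 libraries in each group, TMM scaled, with bars of 1 SE. Cox7b2 and Cox8c lie above 7, Cox4i2 and the second row of Atp5mk near 0, and the rest between -8.5 and -3.

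Members varied together from rat to rat. Over the 30 SM libraries, after the mean of each arm and rat range was removed, the median pairwise Pearson r among 40 members was 0.75 (780 pairs), against 0.12 for all pairs of genes tested. By complex it was 0.84 in II, 0.81 in III, 0.65 in IV and 0.74 in V. The loosest member was Cox4i2, with a median r of 0.30 with the others, and among the tightest was Atp5po, the stalk subunit OSCP, at 0.86. Over the 14 LV libraries the median was 0.62 (39 members), against 0.06 for all genes, with Atp5f1d at 0.03 and Atp5pf at 0.04. These correlations are descriptions over libraries that share depth, scaling and, in SM, the slow-fibre level.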

How the data were processed

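The values are read counts per gene that the authors deposited as one table each for SM, MT and LV. The submitters' processing notes name FastQC 0.74, cutadapt 4.6, STAR 2.7.11a, HTSeq and the build mRatBN7.2. The strand setting was not given in the sources used here, so overlapping and antisense genes cannot be told apart. Libraries were grouped by their titles, and the replicate number is the rat number, so SM, MT and LV libraries of one number come from one animal. Libraries of one rat had a median r of 0.0205 (MT and SM) and 0.0281 (LV and SM) between their deviations from the group means.

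Counts were tested on all genes with the quasi-likelihood test of edgeR 4.0.16 (R 4.3.3, TMM, filterByExpr, robust), with Benjamini-Hochberg adjustment over all genes tested, and called at an adjusted p under 0.05. SE is the log2 fold change over the root of F. The fits of ExT against Sed within SM, MT and LV were tested on simulated counts, with genes drawn independently. Fits between sample types were not tested in that way. Replicates of a group are separate rats. DESeq2 1.42.0 was an alternative, as were other scalings and filters, rat ranges, a rat block, thinned counts and left-out libraries. Isoform shares were tested by permutation (numpy 2.4.6, scipy 1.17.1), exactly under 10 libraries a group. Named genes were the isoform pairs, the catalytic subunits, the inhibitor, and in each test up to 5 called members in each direction by size with a mean of at least 5 CPM, or the 3 of smallest p. The members, lists and alternatives were chosen with earlier results of these data known. The fits by slow-fibre level, the interaction of ranges, the left-out libraries and the scaling to nuclear-encoded totals were added after seeing the data. SE includes the spread between rats as edgeR estimated it. The floor of 3 counts per library is a fixed value and carries no error.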

Additional observations from a re-analysis of the deposited data

Results flagged for a closer look

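One value stood apart from its group. The Cox5b level in the ventricle of trained rat 25 was 785.5 CPM, above the other LV_ExT libraries, which lay between 612.4 and 686 (n = 7). The gap to the next library was 0.575 of the group's range, over the 0.568 set for 7 samples. In all, 84 groups were examined, which were the tested members' levels in each LV arm and the summed members in LV and in SM by rat range. Chance flags about 1 in 20 groups, and 1 was flagged here.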

How the results depend on the processing

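For the members named in a comparison because they were called or had the 3 smallest p, 1102 alternatives were run. Of these, 1084 kept their direction and side of the threshold, 11 lost the call, 1 gained it and 6 reversed. These 6 were in LV against SM under another scaling. Members outside that count also changed sign with the setting, as the values by rat range, the ventricle's training values and Cox4i2 in MT show. Scaled to library totals, Sdhb in Sed stood at 0.063. Scaled to nuclear-encoded totals, Sdhb stood at 0.38, Cyc1 at 0.25, Cox5a at 0.058 and Atp5if1 at 0.22 in Sed, and Cyc1 at 0.23 in ExT. Restricting whole muscle to rats 2 to 16 gave 1 called member in place of 0, and leaving out 1 library at a time within that range gave 0 to 14. In the same range the Cox6a2 share differed by -1.49 points (exact permutation q = 0.0448, a value that does not count the added range tests). The cause of the difference between the ranges was not tested. Leaving out 1 SM library at a time over all rats gave 0 called members in 30 of 30 fits, with 25 to 34 members above 0, medians of 0.04 to 0.09 and 12 to 100 genes called in all. The replicate block by rat changed no count of called members: 41 and 40 for MT against SM in Sed and ExT, 33 and 31 for LV against SM, and 0 for both interactions. Without the block, the Cox6a2 and Atp5mc3 shares in LV against SM had an exact permutation p of 0.000583. In MT the median member had 13 counts per library. Tissue and kit cannot be told apart in LV against SM.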
